A study of Mus musculus with 6 samples.

Results

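The genes described here are the autophagy machinery, 35 genes chosen by symbol for their place in this pathway. Earlier results of these data were known when they were chosen. All 35 were among the 24047 rows of the deposited count table, and 34 passed a filter on low counts that kept 10454 genes. RNA was sequenced from 6 libraries of mouse CD4 T cells. There were 3 libraries labelled Srsf1-cKO, whose genotype is given as Srsf1-flox/flox dLck.Cre, and 3 labelled WT. In the Srsf1-cKO mice a Cre recombinase driven by the distal Lck promoter, which is active in T cells, acts on floxed alleles of Srsf1, the gene of a splicing factor rich in serine and arginine. All mice were 7 weeks old and of a strain labelled B6.129, and no Cre-only control is among these libraries. All 6 libraries came from naive cells of the spleen that were cultured for 72 h with anti-CD3 at 0.5 µg/mL and anti-CD28 at 1 µg/mL. They were then restimulated for 4 h with PMA (100 ng/mL) and ionomycin (1 µM). The series' design text gives 3 mice per genotype.

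Autophagy encloses cytoplasm, damaged mitochondria or protein aggregates in a double membrane, the autophagosome, and delivers them to the lysosome for digestion. A kinase complex around ULK1 starts the process when nutrient sensing by mTORC1 is low, a lipid kinase complex around VPS34 marks the growing membrane, and ATG2 and ATG9 proteins supply it with lipid. Ubiquitin-like conjugation then attaches proteins of the ATG8 family (LC3 and GABARAP) to the membrane, where they bind cargo receptors such as p62. In T cells the pathway is known for keeping mitochondria and endoplasmic reticulum in check as naive cells mature, and for the survival of activated and memory cells. mRNA levels do not measure autophagic flux.

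The libraries held between 7781283 and 10184268 gene counts. Srsf1 itself, the targeted gene, did not separate the groups, at 514 ± 39.1 CPM (gene counts scaled to a common library size by TMM) in Srsf1-cKO and 495 ± 42.1 CPM in WT (SD, n = 3 each; log2 fold change 0.06, SE 0.12, edgeR adjusted p = 0.780). Counts per gene cannot show whether the floxed exons were lost, so the level of the targeted gene neither bears out the labels nor contradicts them. Srsf1-cKO below means the libraries labelled so. All 10 markers of the labelled T cells were detected, with summed levels of 2789 to 3904 CPM in Srsf1-cKO and 3041 to 3340 CPM in WT. Of markers of other cells, summed levels were 123 to 137 CPM in Srsf1-cKO and 59.5 to 84.7 CPM in WT for 14 myeloid and dendritic cell genes, of which S100a9 was at 0 in every library and 3 of 6 tested were called higher. For 7 B cell genes the sums were 8.92 to 23.6 CPM in Srsf1-cKO and 1.19 to 7.28 CPM in WT, with 1 of 4 tested called higher. For 9 CD8 and NK cell genes they were 30.7 to 55.3 CPM in Srsf1-cKO and 27.6 to 43.6 CPM in WT, with 2 of 4 tested called higher. These 2 genes, Klrk1 and Klrd1, were near the floor in WT, with means of 0.173 and 0.854 CPM. Cd8b1, the highest of the 9 in every library, went the other way without overlap and did not pass. It stood at 22.7, 16.5 and 20.7 CPM in Srsf1-cKO and 25.0, 24.1 and 42.1 CPM in WT. For 7 erythroid genes the summed levels were at most 0.528 CPM in any library. The part of these other cells in the results below was not tested. In bulk RNA, fewer cells that express a gene and less RNA per cell cannot be told apart.

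Of the 34 autophagy genes tested, 9 fell in Srsf1-cKO and 0 rose. A gene is said to have risen or fallen where the quasi-likelihood test of edgeR gave an adjusted p under 0.05, with Benjamini-Hochberg adjustment over all 10454 genes. The same rule called 9.5% of all tested genes lower and 8.9% higher, or 18.4% in either direction. The share of autophagy genes that fell, 26.5%, was thus above that of all genes, and their median log2 fold change was -0.34, against 0.01 over all genes. Because the list was chosen with earlier results of these data known, this comparison is a description only. At an unadjusted p under 0.05, 13 autophagy genes were lower and 0 were higher, while 17.7% of all tested genes were lower and 17.2% higher by that threshold. The CPM ranges of the groups did not overlap for 14 autophagy genes that were lower and 2 that were higher in Srsf1-cKO, while 19.5% of all tested genes were lower without overlap and 19.9% higher. The falls lay at several steps of the pathway, from the initiation complex (Ulk1, Atg13, Rb1cc1) through lipid phosphorylation and transfer (Pik3c3, Uvrag, Atg2a) to conjugation and cargo (Atg12, Gabarap, Sqstm1). Atg2a fell most, with a fitted change of -58.4%, and the other 8 changed by -40.3% to -31.5%. Scaling by library size alone moved the median of all genes to 0.11 on the log2 scale and the split of all calls to 1268 higher and 709 lower, against 930 higher and 993 lower with TMM scaling, and 7 autophagy genes then fell.

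**Figure D1:**
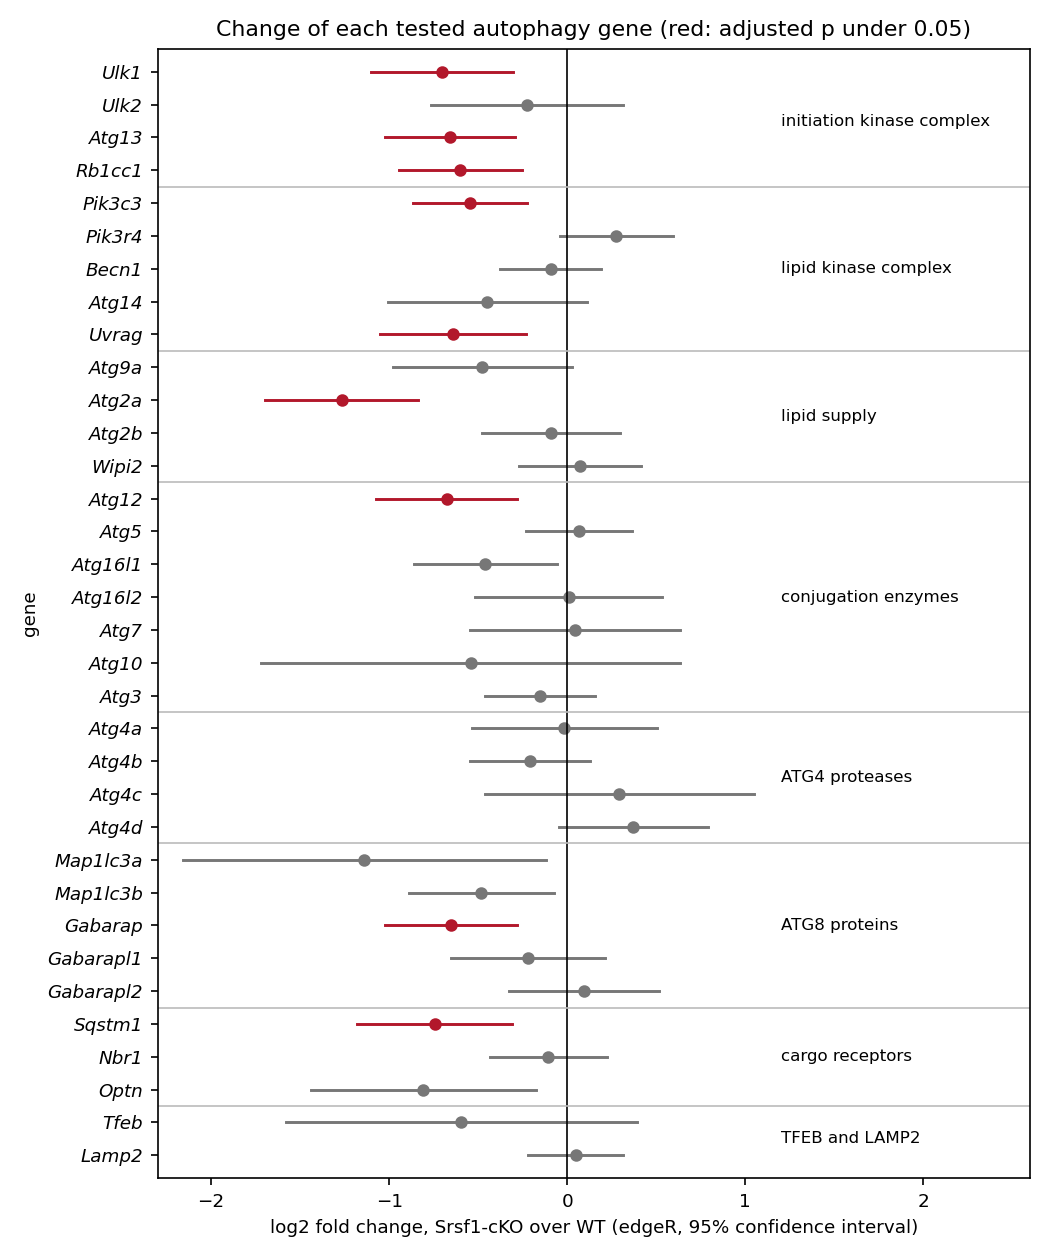
Log2 fold change of each of the 34 tested autophagy genes, Srsf1-cKO over WT, on the horizontal axis, with its 95% confidence interval, grouped by role down the page. The 9 genes with an edgeR adjusted p under 0.05 (red) all lie below 0, and the genes of the ATG4 proteases have intervals that include 0.

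Promoters of 4 of the genes that fell are shown because these genes stand for 3 steps of the pathway and moved in the same direction. Each is the 250 bases before the RefSeq start site (GRCm38.p6), on the strand of the gene. Ulk1 lies on the minus strand at chr5:110810082-110810331, Atg13 on the minus strand at chr2:91710593-91710842, Atg2a on the plus strand at chr19:6241418-6241667 and Sqstm1 on the minus strand at chr11:50210821-50211070. Capitals mark matches, on either strand, to TCACGTGA (the core that TFEB binds), CACGTG (the E-box within it), TGACNNNGC (the core that NRF2 binds), the CCAAT box, the GC box with the letters GGGCGG, and TATAAA.
Ulk1: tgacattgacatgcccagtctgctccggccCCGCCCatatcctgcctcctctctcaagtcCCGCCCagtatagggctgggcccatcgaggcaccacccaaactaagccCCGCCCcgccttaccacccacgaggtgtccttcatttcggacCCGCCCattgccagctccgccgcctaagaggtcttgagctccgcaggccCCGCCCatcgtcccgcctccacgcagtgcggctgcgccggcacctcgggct
Atg13: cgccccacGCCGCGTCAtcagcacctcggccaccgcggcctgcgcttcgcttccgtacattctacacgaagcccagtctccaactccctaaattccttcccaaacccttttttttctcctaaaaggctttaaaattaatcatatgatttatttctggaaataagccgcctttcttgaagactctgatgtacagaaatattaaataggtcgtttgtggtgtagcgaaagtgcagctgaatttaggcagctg
Atg2a: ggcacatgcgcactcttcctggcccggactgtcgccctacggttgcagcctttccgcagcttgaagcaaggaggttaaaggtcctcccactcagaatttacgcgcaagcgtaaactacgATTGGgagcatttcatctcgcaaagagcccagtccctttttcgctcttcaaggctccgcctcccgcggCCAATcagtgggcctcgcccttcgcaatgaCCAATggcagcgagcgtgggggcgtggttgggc
Sqstm1: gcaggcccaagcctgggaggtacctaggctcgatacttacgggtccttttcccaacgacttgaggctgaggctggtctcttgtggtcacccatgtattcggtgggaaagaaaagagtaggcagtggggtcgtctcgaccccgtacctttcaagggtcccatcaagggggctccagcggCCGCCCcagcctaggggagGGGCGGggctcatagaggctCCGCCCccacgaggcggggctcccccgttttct
No match overlapped another in these 4 windows. The Ulk1 window held 5 GC boxes and that of Sqstm1 3, the Atg2a window held 3 CCAAT boxes, and the Atg13 window held 1 NRF2 core. RefSeq windows were found for 29 of the 35 genes, among them 6 of the 9 that fell. The TFEB core stood in 1 of the 29 (Atg3) and 0 of the 6, where 0.907% of 27025 genes with a window hold it. The E-box stood in 3 of 29 and 0 of 6 (6.86% of all genes), the NRF2 core in 2 of 29 and 1 of 6 (11.5%), and TATAAA in 1 of 29 and 0 of 6 (14.3%). The CCAAT box stood in 9 of 29 and 2 of 6 (37.5% of all genes), and the GC box in 21 of 29 and 3 of 6 (35.4%). The shares of all genes include genes not tested here, and shares over the tested genes alone were not computed. These matches are descriptions of short windows and say nothing of which factors act there.

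Of the initiation kinase complex, 3 of its 4 genes fell and the fourth did not pass, while 9.5% of all tested genes fell. Ulk1 encodes the kinase that phosphorylates the downstream machinery, and it stood at 16.9, 13.4 and 15.5 CPM in the Srsf1-cKO libraries, against 28.3, 23.7 and 22.4 CPM in the WT libraries. Atg13, which encodes an adaptor that mTORC1 phosphorylates, stood at 23.7, 25.1 and 20.5 CPM in Srsf1-cKO, against 37.5, 32.0 and 39.9 CPM in WT. Rb1cc1, the gene of the scaffold FIP200, stood at 73.2, 67.1 and 51.7 CPM in Srsf1-cKO, against 95.7, 95.5 and 99.9 CPM in WT. For each of these genes every Srsf1-cKO library lay below every WT library, and for Rb1cc1 Srsf1-cKO replicate 3 was the lowest while the WT libraries were nearly level. Up to 313 bases of Rb1cc1 exons are shared with an antisense gene. The log2 fold changes were -0.70 for Ulk1 (SE 0.18, edgeR adjusted p = 0.0278), -0.66 for Atg13 (SE 0.16, edgeR adjusted p = 0.0259) and -0.60 for Rb1cc1 (SE 0.15, edgeR adjusted p = 0.0289). Ulk2, the gene of the related kinase, was at 12.1 ± 2.16 CPM in Srsf1-cKO and 14.1 ± 3.47 CPM in WT and did not pass (log2 fold change -0.23, 95% interval -0.77 to 0.31). Ulk1 held 61.3% ± 6.08 of the summed FPKM (a level scaled by gene length and library size) of both kinase genes in Srsf1-cKO and 69.3% ± 6.97 in WT, with overlapping libraries (exact two-sided permutation p = 0.3). Atg101, which encodes the remaining subunit of this complex and is not among the 35, also fell, with 11.1, 11.3 and 11.4 CPM in Srsf1-cKO and 31.9, 14.2 and 28.0 CPM in WT (log2 fold change -1.14, SE 0.28, edgeR adjusted p = 0.0271). Without Srsf1-cKO replicate 2 or WT replicate 1, none of Ulk1, Atg13 and Rb1cc1 passed (edgeR adjusted p from 0.0846 to 0.129), and without Srsf1-cKO replicate 1 or 3 only Rb1cc1 did (the others from 0.0544 to 0.0663), while all 3 log2 fold changes stayed between -0.79 and -0.47. Atg101 lost its call when any one of the Srsf1-cKO replicates or WT replicate 1 was left out.

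**Figure D2:**
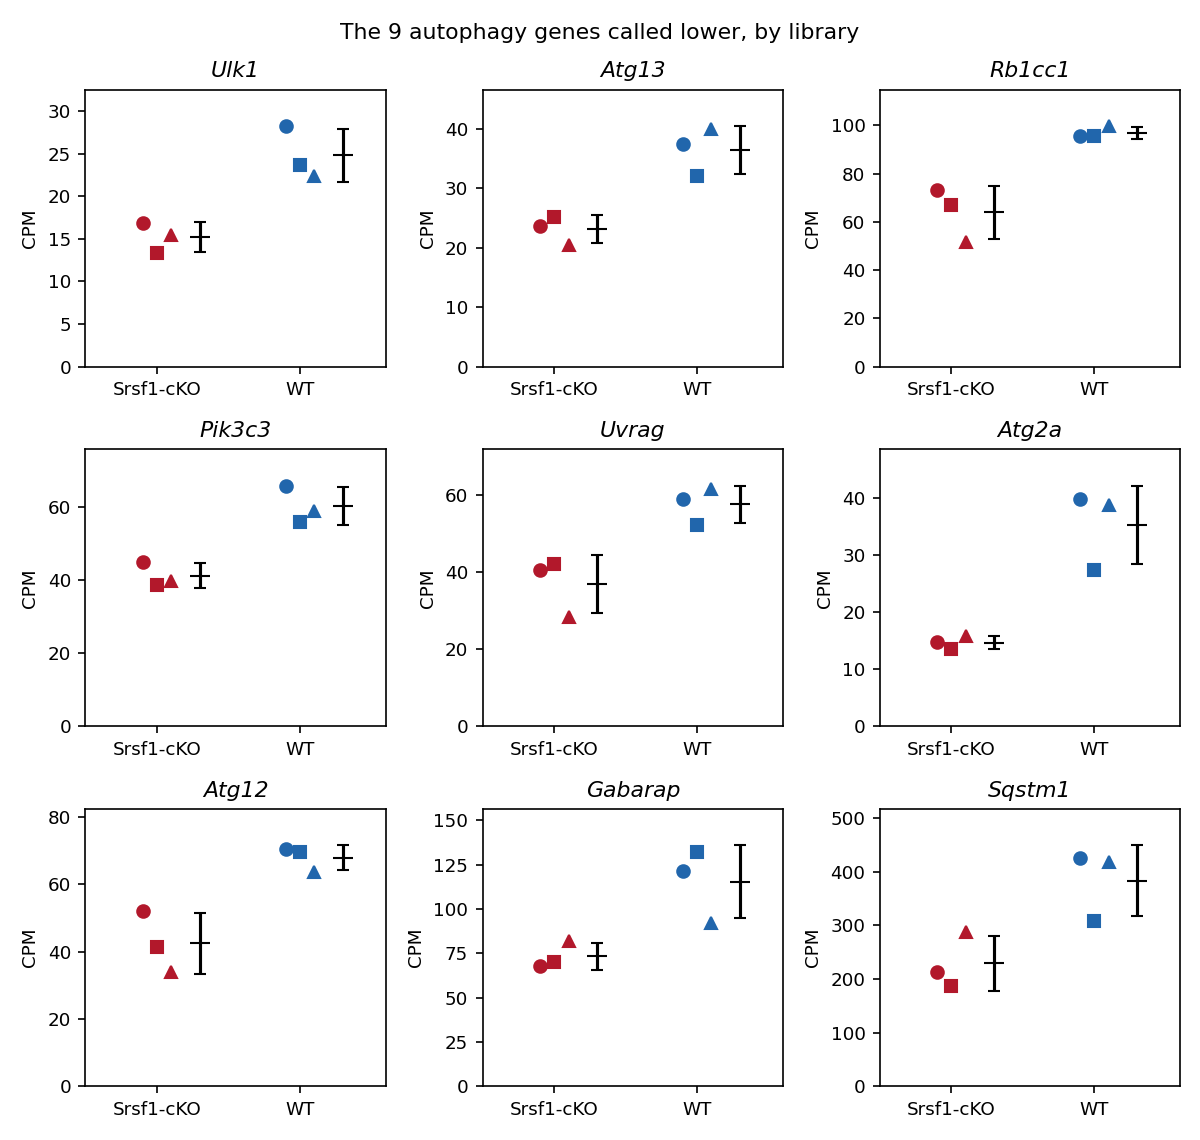
CPM of the 9 autophagy genes that fell, in each library (circle, square and triangle are replicates 1, 2 and 3), with the mean and SD of 3 libraries beside each group. In every panel the Srsf1-cKO libraries (red) lie below the WT libraries (blue).

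In the lipid kinase complex the catalytic subunit and a subunit of its endosomal form fell, while the shared regulators did not pass. Pik3c3 encodes VPS34, the kinase that makes phosphatidylinositol 3-phosphate, and stood at 45.1, 38.7 and 39.9 CPM in Srsf1-cKO, against 65.9, 55.8 and 58.9 CPM in WT (log2 fold change -0.55, SE 0.14, edgeR adjusted p = 0.0310). Uvrag, whose protein replaces ATG14 in the form of the complex at endosomes, stood at 40.5, 42.2 and 28.3 CPM in Srsf1-cKO, against 59.0, 52.2 and 61.6 CPM in WT (log2 fold change -0.64, SE 0.18, edgeR adjusted p = 0.0404). The groups did not overlap for either gene, and up to 92 bases of Uvrag exons are shared with an antisense gene. Becn1, the gene of Beclin 1, was at 74.3 ± 5.30 CPM in Srsf1-cKO and 79.3 ± 3.25 CPM in WT (log2 fold change -0.09, interval -0.38 to 0.19). Atg14, which marks the form that makes autophagosomes, was at 6.07 ± 1.00 CPM in Srsf1-cKO and 8.29 ± 1.68 CPM in WT (log2 fold change -0.45, interval -1.01 to 0.11). Pik3r4, the gene of the VPS15 regulatory subunit, was the only gene of the complex with a positive fold change, at 30.0, 32.6 and 33.5 CPM in Srsf1-cKO and 26.1, 26.1 and 27.2 CPM in WT, without overlap, but it did not pass (log2 fold change 0.28, interval -0.04 to 0.59, edgeR adjusted p = 0.198). Neither Pik3c3 nor Uvrag passed when any one of the Srsf1-cKO replicates or WT replicate 1 was left out, nor under library-size scaling (edgeR adjusted p from 0.0513 to 0.139 in all of these), and Uvrag did not pass without WT replicate 3 (0.0603). Their log2 fold changes stayed between -0.74 and -0.44 in these fits.

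The largest fall among the 35 genes was that of Atg2a, which encodes a lipid transfer protein that feeds the growing membrane. It stood at 14.7, 13.5 and 15.8 CPM in Srsf1-cKO, against 39.8, 27.3 and 38.7 CPM in WT. The Srsf1-cKO libraries were close to each other and well below the lowest WT library, replicate 2. The log2 fold change was -1.27 (SE 0.19, edgeR adjusted p = 0.00732), and Atg2a passed in every alternative, with log2 fold changes from -1.43 to -0.83, the weakest on the log2(FPKM + 1) scale. Its paralogue Atg2b did not pass, at 119 ± 24.9 CPM in Srsf1-cKO and 127 ± 12.6 CPM in WT (log2 fold change -0.09, interval -0.48 to 0.30). Scaled by length, Atg2a held 14.8, 14.5 and 21.8% of the summed FPKM of both paralogues in Srsf1-cKO and 31.8, 28.6 and 32.7% in WT. The groups did not overlap, with exact two-sided permutation p = 0.1, the smallest that 3 against 3 libraries allow, and 0.3 after adjustment over 12 such shares. Atg9a, the gene of a lipid scramblase carried on vesicles, was lower without overlap at 6.16, 6.47 and 5.63 CPM in Srsf1-cKO and 8.73, 7.02 and 9.63 CPM in WT, but did not pass (log2 fold change -0.48, interval -0.98 to 0.03, edgeR adjusted p = 0.164). Wipi2, whose protein reads the lipid mark and recruits ATG16L1, was at 65.9 ± 6.62 CPM in Srsf1-cKO and 62.6 ± 8.08 CPM in WT (log2 fold change 0.07, interval -0.27 to 0.42). Wipi1, with 7, 2 and 13 counts in Srsf1-cKO and 5, 14 and 3 counts in WT, was the gene that the filter on low counts removed.

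Among the conjugation enzymes Atg12 fell and its partner Atg5 did not pass. ATG12 is a ubiquitin-like protein that is joined to ATG5, and the conjugate with ATG16L1 directs lipidation of ATG8 proteins. Atg12 stood at 52.2, 41.3 and 34.1 CPM in Srsf1-cKO, against 70.4, 69.7 and 63.7 CPM in WT, so that the groups did not overlap and the WT libraries were the closer together. Its log2 fold change was -0.68 (SE 0.17, edgeR adjusted p = 0.0303), and it did not pass without Srsf1-cKO replicate 2 (0.120), Srsf1-cKO replicate 3 (0.0604), WT replicate 1 (0.110) or WT replicate 2 (0.0533). Atg5 was at 53.4 ± 3.34 CPM in Srsf1-cKO and 51.0 ± 1.69 CPM in WT (log2 fold change 0.07, interval -0.23 to 0.36). Atg16l1 was lower without overlap, at 26.8, 24.8 and 25.2 CPM in Srsf1-cKO and 38.8, 27.4 and 39.2 CPM in WT, and did not pass (log2 fold change -0.46, interval -0.86 to -0.06, edgeR adjusted p = 0.101), though it did without WT replicate 2. Its paralogue Atg16l2 was at 15.3 ± 1.38 CPM in Srsf1-cKO and 15.2 ± 4.36 CPM in WT (log2 fold change 0.01, interval -0.52 to 0.53). The E1-like enzyme gene Atg7 was at 11.8 ± 1.63 CPM in Srsf1-cKO and 11.4 ± 3.52 CPM in WT (log2 fold change 0.05, interval -0.54 to 0.63). Atg10, the gene of the E2-like enzyme for ATG12, was at 1.84 ± 0.543 CPM in Srsf1-cKO and 2.70 ± 1.75 CPM in WT (log2 fold change -0.54, interval -1.72 to 0.63). Atg3, the E2-like enzyme for ATG8 proteins and the fourth most abundant of the 35 by FPKM, stood at 105, 101 and 88.0 CPM in Srsf1-cKO and 103, 123 and 101 CPM in WT, with overlap (log2 fold change -0.15, interval -0.46 to 0.15).

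Of the ATG8 family, Gabarap fell, the LC3 genes were lower without passing, and Gabarapl2 was not lower. Gabarap stood at 67.7, 70.0 and 82.0 CPM in Srsf1-cKO, against 121, 132 and 92.3 CPM in WT. The nearest libraries of the groups were Srsf1-cKO replicate 3 and WT replicate 3. Its log2 fold change was -0.65 (SE 0.16, edgeR adjusted p = 0.0275), and it did not pass without Srsf1-cKO replicate 1 (0.0863), Srsf1-cKO replicate 2 (0.118), WT replicate 1 (0.108) or WT replicate 2 (0.0561). Map1lc3b, the main LC3 gene by level here, was at 17.6, 17.1 and 23.7 CPM in Srsf1-cKO and 28.5, 25.2 and 28.0 CPM in WT (log2 fold change -0.48, interval -0.89 to -0.08, edgeR adjusted p = 0.0923). Map1lc3a, the related LC3 gene, was at 0.972, 1.00 and 3.00 CPM in Srsf1-cKO and 3.87, 3.77 and 3.56 CPM in WT (log2 fold change -1.14, interval -2.16 to -0.12, edgeR adjusted p = 0.108). For both LC3 genes Srsf1-cKO replicate 3 stood nearest to WT, and both passed without it. Gabarapl1 was at 56.6 ± 8.78 CPM in Srsf1-cKO and 65.9 ± 14.5 CPM in WT (log2 fold change -0.22, interval -0.65 to 0.21). Gabarapl2, whose protein is also called GATE-16, stood at 17.0, 13.6 and 18.4 CPM in Srsf1-cKO and 15.4, 13.8 and 16.8 CPM in WT, with overlap (log2 fold change 0.09, interval -0.33 to 0.52).

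On the length-scaled FPKM, Gabarap held 45.6% ± 1.43 of the GABARAP subfamily in Srsf1-cKO and 55.8% ± 7.79 in WT, and Gabarapl2 held 33.7% ± 1.83 in Srsf1-cKO and 24.9% ± 2.62 in WT (SD, n = 3 each). Neither share overlapped between the groups (exact two-sided permutation p = 0.1 for each, the smallest possible, and 0.3 after adjustment over 12 shares). The gene lengths behind the FPKM were not checked, and they weigh on the Gabarapl2 level. In Srsf1-cKO it averaged 16.3 CPM and 42.7 FPKM, where Gabarap averaged 73.3 CPM and 57.8 FPKM. The Gabarapl2 share differed between the groups by 8.76 points on FPKM and by 3.38 points on counts not scaled by length. Map1lc3a held 5.69% ± 2.86 of the LC3 level in Srsf1-cKO and 10.3% ± 1.42 in WT, with overlapping libraries. The ATG4 proteases, which trim ATG8 proteins before conjugation and remove them afterwards, had 0 of 4 genes called. With 4 genes, this count cannot be set apart from the 18.4% of all genes called. Atg4b was at 36.5 ± 3.05 CPM in Srsf1-cKO and 42.2 ± 4.30 CPM in WT (log2 fold change -0.21, interval -0.55 to 0.13), and its share of the 4 genes was 45.3% ± 1.74 in Srsf1-cKO and 51.6% ± 2.15 in WT, without overlap (exact permutation p = 0.1). Atg4d was higher without overlap, at 22.4, 20.4 and 22.6 CPM in Srsf1-cKO and 17.8, 13.4 and 19.4 CPM in WT, and did not pass (log2 fold change 0.37, interval -0.05 to 0.79, edgeR adjusted p = 0.188). Exons of Atg4d share 792 bases with those of Kri1 on the opposite strand, and no source used here says if reads were counted by strand. Atg4a was at 10.2 ± 0.825 CPM in Srsf1-cKO and 10.4 ± 2.62 CPM in WT (log2 fold change -0.02, interval -0.54 to 0.50), and Atg4c at 2.28 ± 0.524 CPM in Srsf1-cKO and 1.86 ± 0.0914 CPM in WT (log2 fold change 0.29, interval -0.46 to 1.05).

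**Figure D3:**
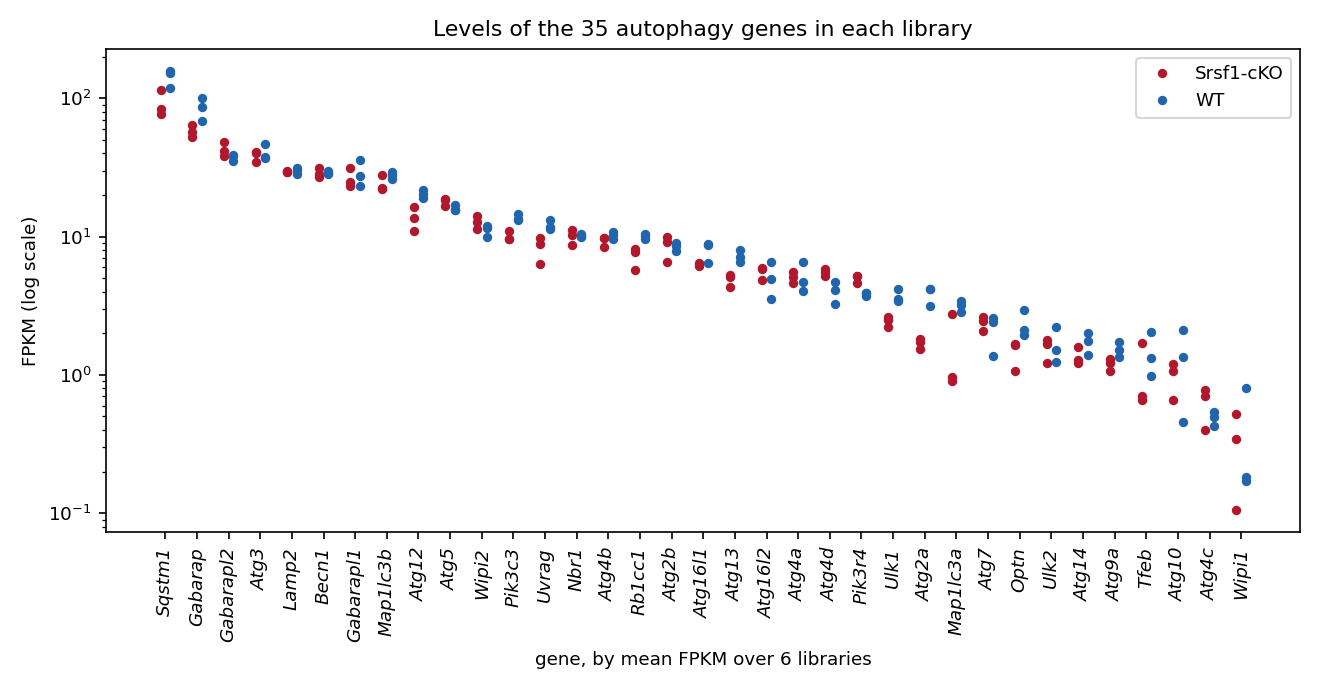
FPKM of all 35 autophagy genes in each library on a log scale, Srsf1-cKO (red) left of WT (blue), ordered by the mean over 6 libraries. Sqstm1 and Gabarap are the highest and both lie lower in Srsf1-cKO, while Gabarapl2, Atg3 and Lamp2, which follow, overlap between the groups.

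Sqstm1, which encodes the cargo receptor and signalling scaffold p62, was the most abundant gene of the set by FPKM and fell. It stood at 213, 187 and 287 CPM in Srsf1-cKO, against 425, 308 and 418 CPM in WT. Every Srsf1-cKO library lay below every WT library, though Srsf1-cKO replicate 3 came close to WT replicate 2. The log2 fold change was -0.74 (SE 0.19, edgeR adjusted p = 0.0310), and Sqstm1 did not pass without Srsf1-cKO replicate 1 (0.0857), Srsf1-cKO replicate 2 (0.127) or WT replicate 1 (0.116). On the FPKM scale it averaged 91.9 ± 20.0 in Srsf1-cKO and 143 ± 21.6 in WT. Up to 580 bases of its exons are shared with Mrnip on the opposite strand. Nbr1, the gene of a receptor that acts with p62, was at 61.0 ± 7.75 CPM in Srsf1-cKO and 65.6 ± 4.67 CPM in WT (log2 fold change -0.11, interval -0.43 to 0.22). Optn, the gene of the mitophagy and xenophagy receptor optineurin, was lower without overlap, at 3.35, 5.13 and 5.26 CPM in Srsf1-cKO and 6.96, 7.02 and 10.2 CPM in WT, and did not pass (log2 fold change -0.81, interval -1.44 to -0.17, edgeR adjusted p = 0.0748).

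Heat shock genes, given here because p62 and chaperones handle misfolded proteins together, also differed between the groups. Of 11 tested, 5 fell and 0 rose, or 45.5% called, against 18.4% of all genes called and 9.5% called lower. The median log2 fold change was -0.30, and 8 of the 11 lay below 0. Hsp90aa1 was higher without overlap, at 852, 902 and 822 CPM in Srsf1-cKO and 745, 694 and 775 CPM in WT, and did not pass. Summed levels of all 12 were 7481 to 8051 CPM in Srsf1-cKO and 8556 to 10009 CPM in WT. Hspa8 fell to 1497 ± 139 CPM in Srsf1-cKO, against 2395 ± 199 CPM in WT (log2 fold change -0.68, edgeR adjusted p = 0.0117), and Bag3, a chaperone partner in selective autophagy, fell to 11.5 ± 1.19 CPM in Srsf1-cKO, against 21.2 ± 3.88 CPM in WT (log2 fold change -0.88, edgeR adjusted p = 0.0198). The inducible HSP70 gene Hspa1b was at 2.70, 2.12 and 1.50 CPM in Srsf1-cKO and 226, 206 and 12.0 CPM in WT, and its near-identical copy Hspa1a, with which it may share reads, at 1.30, 0.893 and 1.13 CPM in Srsf1-cKO and 154, 126 and 4.49 CPM in WT. WT replicate 3 thus stood far below the other WT libraries in these genes. The part of these genes in the fall of Sqstm1 was not tested. Without Srsf1-cKO replicate 2 or WT replicate 1, Hspa1b alone of the 5 heat shock genes passed, and limma-voom called neither Hspa1a nor Hspa1b.

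**Figure D4:**
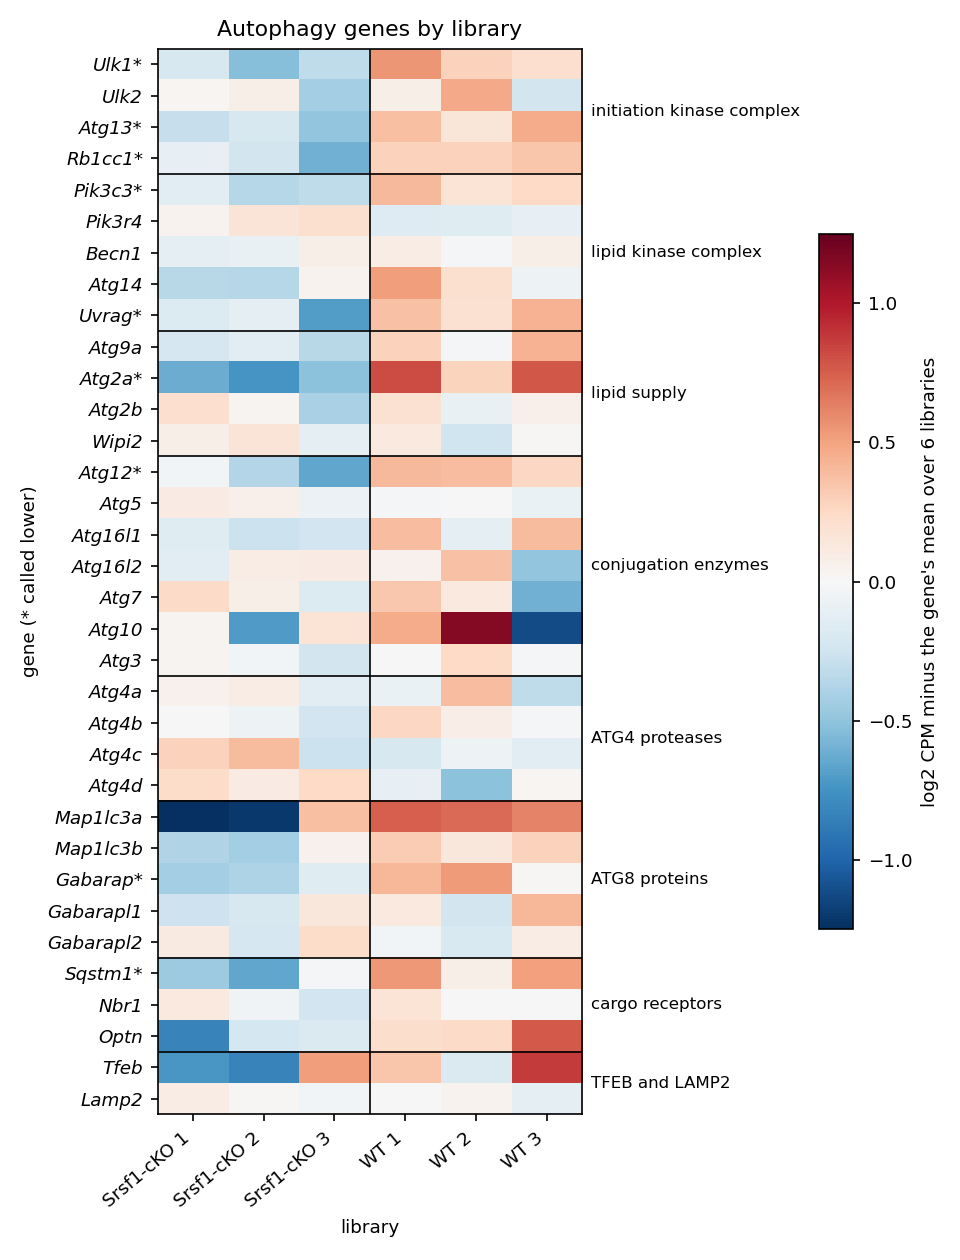
Log2 CPM of the 34 tested autophagy genes in each library, minus the mean of the gene over 6 libraries (red above, blue below), with rows grouped by role and an asterisk on the 9 genes that fell. The rows with an asterisk are mostly blue in the Srsf1-cKO columns and red in the WT columns, and Srsf1-cKO replicate 3 is redder than the other Srsf1-cKO libraries for Map1lc3a, Sqstm1 and Tfeb.

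Tfeb, which encodes a transcription factor of autophagy and lysosome genes, and Lamp2, a protein of the lysosomal membrane that autophagosome fusion needs, did not pass. Tfeb was low, at 2.05, 1.90 and 4.88 CPM in Srsf1-cKO and 4.31, 2.99 and 6.20 CPM in WT (log2 fold change -0.59, interval -1.58 to 0.39). Lamp2, the fifth most abundant of the 35 by FPKM, stood at 118, 112 and 108 CPM in Srsf1-cKO and 111, 114 and 102 CPM in WT (log2 fold change 0.05, interval -0.22 to 0.31). The libraries of the groups overlapped for both genes.

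Genes of autophagosome formation outside the 35 moved in both directions, with 3 of 14 tested lower and 1 higher (18.4% of all genes were called; median log2 fold change -0.24). Beside Atg101, the fallen genes were Wdr45, of the same lipid-reading family as Wipi2, at 10.7 ± 2.59 CPM in Srsf1-cKO and 19.4 ± 1.75 CPM in WT (log2 fold change -0.85, edgeR adjusted p = 0.0273), and Pik3c2a, a lipid kinase of another class (log2 fold change -0.45, edgeR adjusted p = 0.0385). Vmp1, the gene of a scramblase of the endoplasmic reticulum, rose to 149 ± 22.0 CPM in Srsf1-cKO, against 103 ± 7.41 CPM in WT (log2 fold change 0.54, edgeR adjusted p = 0.0348). Sh3glb1, the most abundant by FPKM, did not pass (log2 fold change -0.28). Of 17 other cargo receptor and mitophagy genes 3 fell and 0 rose, with a median of -0.07, or 17.6% called against 18.4% of all genes. These were Calcoco1, a receptor for the endoplasmic reticulum and Golgi (9.03 ± 4.79 CPM in Srsf1-cKO and 22.1 ± 2.99 CPM in WT), Bnip3l, the mitophagy receptor NIX (99.5 ± 10.2 CPM in Srsf1-cKO and 158 ± 39.9 CPM in WT), and Pink1, a kinase that marks damaged mitochondria (12.7 ± 0.690 CPM in Srsf1-cKO and 20.8 ± 5.12 CPM in WT), with edgeR adjusted p between 0.0303 and 0.0468. Tax1bp1, the receptor of this list most abundant by FPKM, did not pass (log2 fold change 0.10). Of 16 genes of fusion with the lysosome 2 fell and 0 rose, with a median of -0.09, or 12.5% called. Tecpr1, a tethering factor, stood at 15.3, 14.0 and 24.0 CPM in Srsf1-cKO, against 54.7, 58.5 and 49.5 CPM in WT (log2 fold change -1.61, SE 0.22), and Vps11, a core subunit of the HOPS tether, at 15.2 ± 1.25 CPM in Srsf1-cKO and 34.1 ± 3.12 CPM in WT (log2 fold change -1.17, SE 0.16; edgeR adjusted p = 0.00648 for both). Rab7, the most abundant by FPKM, did not pass (log2 fold change -0.11). Tecpr1 and Vps11 passed without any one library. None of the 7 formation and receptor genes did when Srsf1-cKO replicate 1 or 2 or WT replicate 1 was left out, and only Atg101 and Wdr45 without WT replicate 2, and Vmp1, Wdr45 and Calcoco1 without Srsf1-cKO replicate 3. Bnip3l and Pink1 also lost their calls with library-size scaling, with limma-voom and on the FPKM scale, and Pik3c2a with library-size scaling and on the FPKM scale.

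Of 36 lysosomal membrane and hydrolase genes 5 rose and 2 fell, with a median log2 fold change of -0.02, and the 19.4% called was close to the 18.4% of all genes. Ctsc, which encodes the protease cathepsin C that activates granzymes, rose to 207, 203 and 165 CPM in Srsf1-cKO, against 93.9, 102 and 68.6 CPM in WT (log2 fold change 1.12, edgeR adjusted p = 0.00761). Gusb, beta-glucuronidase, rose with a log2 fold change of 0.93 and Sgsh, a heparan sulfatase, with 1.34 (edgeR adjusted p = 0.0101 and 0.0190), and Ctsz and Npc1, chosen after their values were seen, rose by 0.45 and 0.50. Cln3, a lysosomal membrane protein, fell (log2 fold change -0.94, edgeR adjusted p = 0.0157), as did Npc2, a sterol carrier and the most abundant of the list by FPKM, which overlapped between the groups at 663, 514 and 515 CPM in Srsf1-cKO and 973, 1087 and 643 CPM in WT (log2 fold change -0.68, edgeR adjusted p = 0.0481). Of 15 subunits of the V-ATPase, the proton pump of lysosomes, 2 rose and 0 fell (median 0.08), or 13.3% called against 18.4% of all genes. These were Atp6v0a1 at 4.55 ± 1.81 CPM in Srsf1-cKO and 1.16 ± 0.236 CPM in WT, and Atp6v1c1 at 72.9 ± 2.51 CPM in Srsf1-cKO and 50.4 ± 4.67 CPM in WT (edgeR adjusted p = 0.0140 and 0.0273), while Atp6v1f, the most abundant by FPKM, did not pass (log2 fold change -0.34). Atp6v0a1 passed the filter on low counts only through Srsf1-cKO. Myeloid and dendritic cells are rich in lysosomes, and the summed level of 14 of their markers was 123 to 137 CPM in Srsf1-cKO and 59.5 to 84.7 CPM in WT. Of the 6 markers tested, 3 (Cd74, H2-Aa and Lyz2) rose, and Cd68 and Itgam were higher without overlap but did not pass. H2-Ab1 overlapped at 9.67 to 17.2 CPM in Srsf1-cKO and 5.41 to 25.2 CPM in WT. S100a9, which was not tested, was at 0 in every library. The part of these cells in the rises of lysosomal genes was not tested. Without Srsf1-cKO replicate 2 only Ctsc of these lysosomal and V-ATPase genes passed, and without WT replicate 1 only Ctsc and Gusb. Cln3 also lost its call without Srsf1-cKO replicate 1. Npc1 passed without Srsf1-cKO replicate 1, Npc2 and Ctsz without WT replicate 3, and Atp6v1c1 without WT replicate 2, and none of these 4 genes passed when any other library was left out. Npc2 also lost its call with library-size scaling, with limma-voom and on the FPKM scale, and Ctsz with RLE scaling.

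Of 28 upstream regulators 5 fell and 3 rose, with a median log2 fold change of -0.24, or 28.6% called against 18.4% of all genes. Ddit4, which encodes an inhibitor of mTORC1 and was the most abundant by FPKM, stood at 115, 75.3 and 39.3 CPM in Srsf1-cKO, against 245, 205 and 128 CPM in WT (log2 fold change -1.33, SE 0.36, edgeR adjusted p = 0.0368). Stk11, the gene of LKB1, the kinase that activates AMPK, fell to 25.0 ± 0.488 CPM in Srsf1-cKO, against 38.0 ± 1.97 CPM in WT (log2 fold change -0.60, edgeR adjusted p = 0.0215). The folliculin partners moved apart, with Fnip1 lower (log2 fold change -0.52, edgeR adjusted p = 0.0207) and Fnip2 higher (0.70, edgeR adjusted p = 0.0211). Prkaa2, an AMPK catalytic subunit, was low and rose, at 2.21 ± 1.01 CPM in Srsf1-cKO and 0.504 ± 0.165 CPM in WT (edgeR adjusted p = 0.0250). It passed the filter on low counts only through Srsf1-cKO, with 0.332, 0.520 and 0.660 CPM in the WT libraries. Chosen after their values were seen, Tfe3 and Foxo3, the genes of transcription factors that act on autophagy genes, fell by 0.50 and 0.60 on the log2 scale, and Rragd, a GTPase that recruits mTORC1 to the lysosome, rose by 0.55. Among 16 tested genes of NRF2, the factor that p62 releases from KEAP1, and its targets, 2 fell and 0 rose (median 0.06), or 12.5% called, below the 18.4% of all genes. Nfe2l2, the gene of NRF2 itself, was at 75.1 ± 13.0 CPM in Srsf1-cKO and 110.0 ± 12.7 CPM in WT (edgeR adjusted p = 0.0446), Osgin1 at 0.628 ± 0.397 CPM in Srsf1-cKO and 2.51 ± 1.14 CPM in WT (edgeR adjusted p = 0.0394), and Fth1, the most abundant by FPKM, did not pass (log2 fold change 0.07). Osgin1 passed the filter on low counts only through WT. None of the 10 called regulators and NRF2 genes passed without Srsf1-cKO replicate 2, or without WT replicate 1, where Osgin1 was not tested. Without Srsf1-cKO replicate 1 only Prkaa2, Ddit4, Nfe2l2 and Osgin1 passed, and without Srsf1-cKO replicate 3 only Prkaa2, Stk11, Fnip1 and Fnip2. Tfe3, Foxo3, Ddit4, Nfe2l2 and Osgin1 lost their calls without WT replicate 2, and Tfe3 without WT replicate 3. Tfe3, Foxo3 and Nfe2l2 also lost their calls with library-size scaling and on the FPKM scale, and Fnip1 on the FPKM scale.

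Without 1 library, calls were lost while fold changes moved little. Of the 9 autophagy genes, 3, 1 and 4 passed when Srsf1-cKO replicate 1, 2 or 3 was left out, and 1, 7 and 8 when WT replicate 1, 2 or 3 was, with edgeR adjusted p of lost calls from 0.0533 to 0.139. Over all genes the calls dropped as well, to 234 without Srsf1-cKO replicate 2 and to 195 without WT replicate 1, against 1923 with all libraries. None of the 9 log2 fold changes moved by more than 1.5 times in any of these fits, and every one stayed below 0. On the log2(FPKM + 1) scale, tested with limma, Atg12, Atg13, Atg2a and Sqstm1 passed and the other 5 did not (adjusted p from 0.0564 to 0.0784), with all 9 log2 fold changes below 0. Of the 28 called genes in the 7 lists of related genes, 11, 3 and 14 passed when Srsf1-cKO replicate 1, 2 or 3 was left out, and 4, 15 and 25 when WT replicate 1, 2 or 3 was. Ctsc, Tecpr1 and Vps11 passed in all 6 of these fits.

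**Figure D5:**
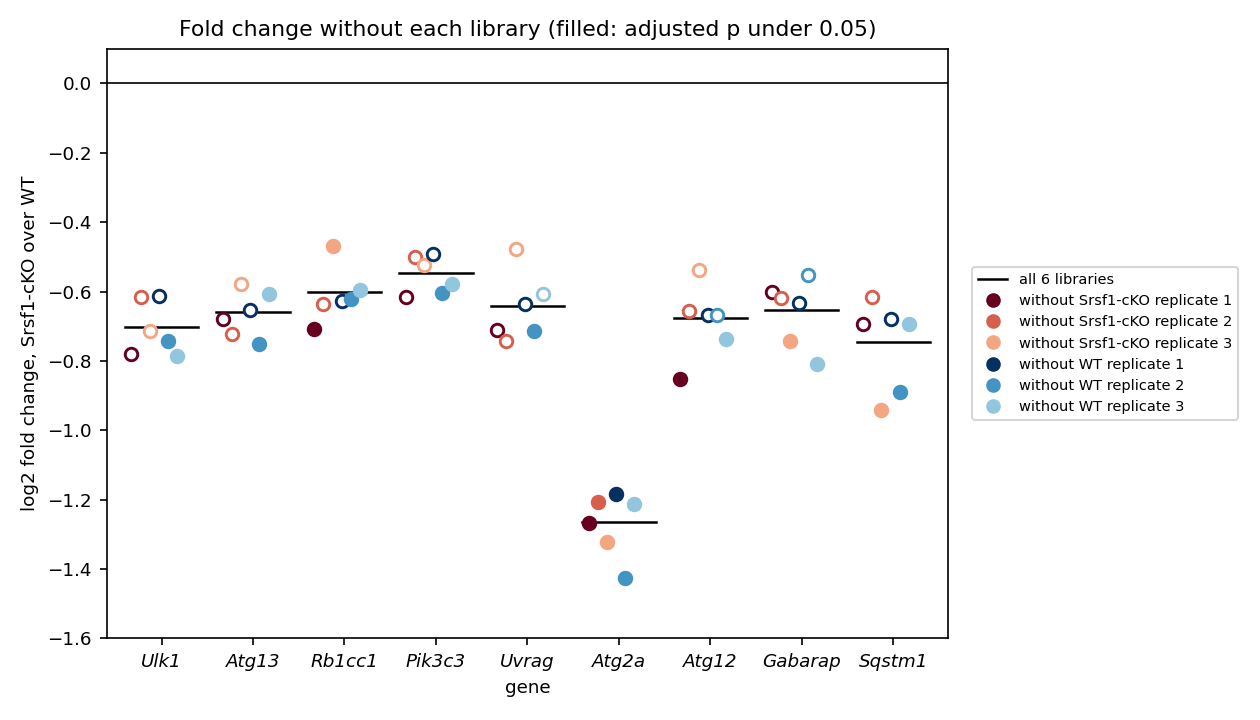
Log2 fold change of the 9 autophagy genes that fell, Srsf1-cKO over WT, with all 6 libraries (black line) and without each library in turn (circles, filled where the edgeR adjusted p is under 0.05). Atg2a is filled in all 6 fits, and the circles of every gene lie below 0.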

How the data were processed

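Gene counts were deposited as whole numbers for 24047 gene symbols in 6 libraries, and the authors deposited FPKM values for 24043. The deposited alignment report names STAR 2.4.2a, and the submitters' processing notes name STAR, Cufflinks and the mm9 build. No source used here gives the annotation, the program that counted reads or its strand setting, and overlapping genes may share reads. Per the design text, the kit was a stranded mRNA kit and reads were single-end, of 75 bases. Uniquely mapped reads made up 77.96 to 80.93% of the input reads, per the deposited alignment report. Replicates differed by more than counting noise, so no library was a copy of another.

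Counts were tested with edgeR 4.0.16 (R 4.3.3) by its two-sided quasi-likelihood test. Genes were filtered by filterByExpr, libraries scaled by TMM, and the model held genotype alone, with Benjamini-Hochberg adjustment over the 10454 genes kept. That filter keeps a gene with enough counts in as many libraries as a group holds, so a gene low in the other group is tested too. Prkaa2, Atp6v0a1, Lyz2, Cd79a, Klrk1 and Klrd1 passed it only through Srsf1-cKO, and Osgin1, Hspa1a and Map1lc3a only through WT. CPM are counts scaled by TMM library size. Log2 fold changes set Srsf1-cKO over WT, and intervals are 95% intervals of the fit. Shares within families of paralogues are percent of summed FPKM, compared by exact permutation. The procedure was tested on simulated counts first. Alternatives were RLE and library-size scaling, 2 other count filters, DESeq2 1.42.0, limma-voom (limma 3.58.1), a replicate block, an adjusted p under 0.1, each library left out, and limma with a trend on log2(FPKM + 1) and log2(FPKM + 0.1) for genes that reached an FPKM of 1 in 3 or more libraries, or unfiltered. Promoter windows come from RefSeq (GRCm38.p6), and exon overlaps from GENCODE M21.

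The members and the other lists were chosen with earlier results of these data known. All members are named, with every library's value for those that passed and for the 5 of highest mean FPKM. Of each other list, up to 4 called genes with the smallest adjusted p and the most abundant gene are named. 4 genes were found under older symbols, and Map1lc3c and Gabarapl3 were not analysed here.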

Additional observations from a re-analysis of the deposited data

How the results depend on the processing

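Of 1206 values of single genes and shares under the alternatives, 1001 stayed the same, 170 lost a call, 5 gained one and 29 changed sign. A gene stayed the same if it kept its direction and side of the threshold, so genes that stayed uncalled count among the 1001. A share stayed the same if its difference between the groups moved by less than the larger SD of the groups. The 1 share that moved was that of Gabarapl2, to a difference of 3.38 points on counts not scaled by length. No autophagy gene was called higher under any alternative, and fusion genes kept 2 or 3 calls. The 1923 calls over all genes became 2972 at an adjusted p under 0.1 and 1146 on unfiltered FPKM, where the calls were 1 autophagy gene, 1 other formation gene, 0 other receptors, 4 lysosomal genes, 1 V-ATPase gene, 2 regulators and 0 NRF2 genes. With pseudocounts of 1 and 0.1 on filtered FPKM, 4 and 3 autophagy genes fell, 1 and 1 other receptors, 1 and 1 V-ATPase genes, 5 and 4 regulators and 0 and 0 NRF2 genes were called. Other receptors had 1 call with library-size scaling and 1 with limma-voom. NRF2 genes had 1 call with library-size scaling, 1 with a mean of at least 5 CPM and 5 at an adjusted p under 0.1, and V-ATPase genes 1 with a mean of at least 5 CPM. Without 1 library, calls ranged from 195 to 1989 over all genes, 1 to 8 for autophagy genes that fell, 0 to 4 for other formation genes, 0 to 4 for other receptors, 1 to 8 for lysosomal genes, 0 to 2 for V-ATPase genes, 0 to 8 for regulators and 0 to 5 for NRF2 genes, and 4 to 7 shares did not overlap. Fewer libraries leave fewer degrees of freedom, and otherwise the cause was not tested.

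The signs that changed all belong to genes that did not pass. With library-size scaling the log2 fold change was 0.010 for Becn1, 0.012 for Atg2b and 0.083 for Atg4a. Atg4a was also at 0.0054 with limma-voom, at 0.0057 with the replicate block, and at 0.016, 0.022 and 0.016 on FPKM with a pseudocount of 1, with 0.1 and unfiltered, where Lamp2 was at -0.015, -0.016 and -0.015. Atg16l2 was at -0.0013 with RLE scaling, -0.0078 without a filter and -0.0014 with DESeq2. Without 1 library, the log2 fold changes ran from -0.23 to 0.067 for Atg2b, -0.033 to 0.15 for Wipi2, -0.21 to 0.21 for Atg16l2, -0.20 to 0.23 for Atg7, -0.18 to 0.19 for Atg4a, -0.00032 to 0.21 for Gabarapl2, -0.013 to 0.078 for Lamp2, -0.057 to 0.20 for Tax1bp1, -0.10 to 0.16 for Fth1 and -0.0047 to 0.12 for Srsf1. Same-numbered libraries of the groups correlated at 0.222, 0.0128 and 0.272 in their deviations, and libraries of different number at -0.3175 to 0.2006. These values do not settle whether the numbers pair the libraries. A replicate block gave 2270 calls over all genes, 9 autophagy genes that fell and 5 NRF2 genes, and Srsf1-cKO replicate 2 correlated best with WT replicate 1. Depth limits Wipi1, which was not tested.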
